A study of Caenorhabditis elegans with 4 samples.

Results

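Autosomal binding regions of DPY-28 that only the second of 2 ChIP samples backed are described here. They are peaks of the whole-series list on chromosomes I to V that overlapped a replicate 2 peak by 1 bp or more and no replicate 1 peak, so they were chosen by the measured peak calls themselves. The rule found 299 such peaks, 17.0% of the 1763 autosomal peaks and part of the 10867 peaks of that list. The assay was ChIP-seq, in which DNA bound by a protein is pulled down with an antibody and sequenced. It was done on N2, the wild-type laboratory strain of Caenorhabditis elegans, as live embryos of mixed stages, male and hermaphrodite, from gravid adults grown in liquid culture, with 20 °C given as the temperature. The samples were 2 ChIP samples with a purified rabbit polyclonal antibody to DPY-28 and 2 input samples, which share all these features, and none carried a mutation or a transgene. Whole embryos were used, so a peak is an average over all cell types and stages. Nothing in the labels ties replicates 1 and 2 to separate cultures, and what differs between them may be technical.

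Condensins are protein complexes that hold DNA in loops and compact chromosomes. DPY-28 is a condensin subunit with a place in 2 complexes of the worm: condensin I, which loads on every chromosome for division, and the dosage compensation condensin, which gathers on the X chromosomes of hermaphrodites and lowers their expression. Autosomal DPY-28 can therefore belong to either complex, and a peak list does not tell them apart. The arms of worm autosomes hold more repeats and recombine more, while the centres hold more of the essential and broadly expressed genes.

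The deposited values were positions and scores from 3 lists: 5244 peaks for replicate 2, of which 501 were autosomal, 3274 for replicate 1, of which 1384 were autosomal, and 10867 for the whole series. Scores are the authors' peak caller's own values on a scale that the files do not name. They ran from 1.55 to 43.59 in the whole-series list for the 299 peaks and from 50.15 to 3169.23 for the replicate 2 peaks under them, and they were read only within a list. Read depth is unknown, so no peak has an error of its own. Each replicate list comes from 1 sample, so no test between samples was possible, and the calls that picked the 299 peaks were not tested again. Intervals are 95% intervals, exact binomial for shares and from order statistics for medians. They cover counting error only and treat peaks as independent, which neighbours are not.

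In score the replicate 2 only peaks stood, by their median, second among the 4 classes of autosomal peaks. Their median whole-series score was 8.88 (8.40 to 10.2), against 17.1 (14.8 to 19.6) for the 249 peaks found in both replicates, 5.85 (5.52 to 6.06) for the 633 found in replicate 1 only and 4.44 (4.22 to 4.67) for the 582 found in neither. The middle 50% of their scores lay between 6.24 and 13.6. In the highest scoring 25% of all autosomal peaks, 136 of 441 peaks were of this kind, or 30.8% (26.6 to 35.4%). That share was 20.2%, 9.98% and 6.80% in the next 3 slices of 25%. The classes were set by peak calls, and the whole-series scores may rest on the same reads. This order and these shares are therefore not independent of the rule. The replicate lists also differ in size, with 501 autosomal peaks for replicate 2 and 1384 for replicate 1. The part of this in the order was not tested. Among the 100 highest autosomal peaks, 15 were replicate 2 only, near their 17.0% of all 1763 autosomal peaks. Of these 100, 83 were found in both replicates, 1 in replicate 1 only and 1 in neither. On X, where 3895 of 9098 peaks (42.8%) were replicate 2 only, the median score of these was 8.97 (8.74 to 9.17), within the interval of the autosomal median.

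Widths followed the same order less closely. The median width of the replicate 2 only peaks was 288 bp (276 to 303), against 458 bp (421 to 505) for peaks in both replicates, 257 bp (244 to 268) for replicate 1 only and 188 bp (182 to 193) for neither. X peaks of replicate 2 only were wider than the autosomal ones, with a median of 347 bp (342 to 353). Of the 299 peaks, 44 were under 200 bp, 12 were over 1000 bp and 2 were over 2000 bp wide, and together they covered 109 kb. Score and width were only loosely related across them, with a Spearman rho of 0.15 over 299 peaks of 1 list.

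**Figure D1:**
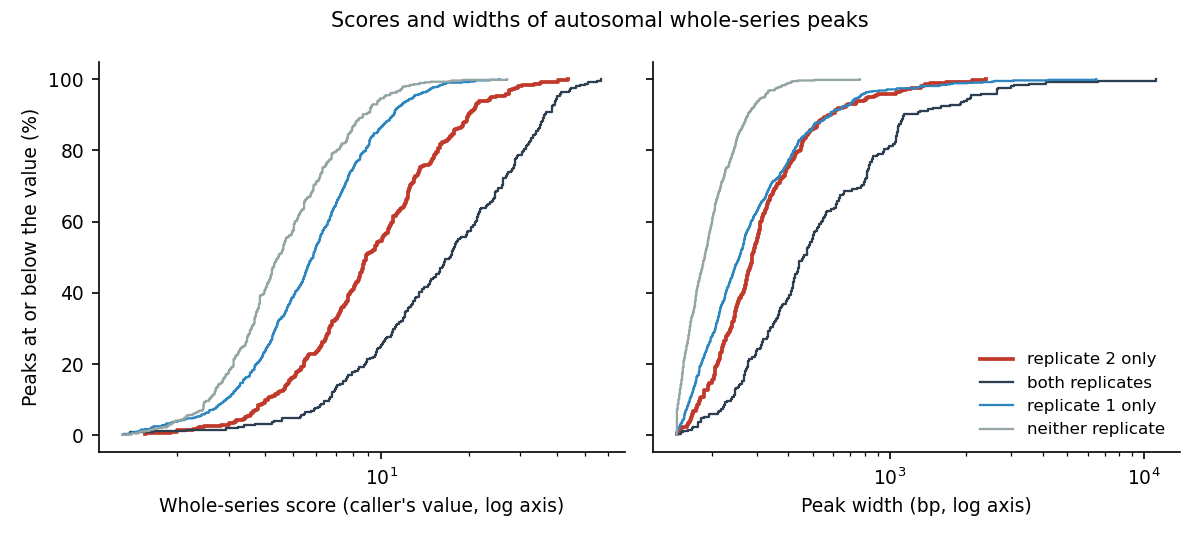
Cumulative share of autosomal whole-series peaks (y axis, %) at or below a score (left, the peak caller's value, log axis) or a width (right, bp, log axis), for peaks in replicate 2 only (n = 299), both replicates (n = 249), replicate 1 only (n = 633) and neither (n = 582). The curve for replicate 2 only lies between those for both replicates and replicate 1 only in score, with a median of 8.88, and close to that for replicate 1 only at the larger widths.

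The 10 highest scoring of them were 282 to 552 bp wide, over replicate 2 peaks with scores of 216.32 to 396.5, ranks 62 to 135 of 501. The first was I 8224268 to 8224549 (WS220 coordinates), 282 bp wide with a whole-series score of 43.59, rank 10 among the autosomal peaks. Its replicate 2 peak was 523 bp wide and scored 371.07, rank 71 of 501, and the nearest replicate 1 peak was 34771 bp away. Next came II 10033409 to 10033779 with a score of 40.39, rank 14, over a replicate 2 peak of score 370.72 with the nearest replicate 1 peak 207280 bp away and another replicate 2 only peak 928 bp away. The region III 8043757 to 8044044 scored 35.29 and V 8500365 to 8500753 scored 34.99, with replicate 2 scores of 237.55 and 394.

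The remaining peaks among the 10 highest scored between 27.34 and 33.46. They were V 10807925 to 10808217, III 3867364 to 3867689, II 3521358 to 3521716, II 14804303 to 14804779, V 5049247 to 5049798 and II 7708525 to 7708840. All 10 were 282 to 552 bp wide, over replicate 2 peaks of 496 to 670 bp that scored 216.32 to 396.5. Their distance to a replicate 1 peak varied widely, with V 5049247 to 5049798 only 1668 bp from one. None of the 10 lay on IV, where the highest was IV 654815 to 655008 with a score of 21.04, rank 126. It lay at 3.74% of the chromosome's length, over a replicate 2 peak that scored 108.91. Genes at these positions were not analysed here.

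Positions leaned towards the middle of the chromosomes. With the centre taken as the middle one of 3 equal parts of each chromosome, 130 of the 299 peaks (43.5%, 37.8 to 49.3%) had their midpoint there, against 34.1% of all autosomal peaks. This was 4.72 peaks per Mb in centres and 3.07 per Mb in arms. The centre share was 39.8% (33.6 to 46.1%) for peaks in both replicates, 25.9% (22.5 to 29.5%) for replicate 1 only and 35.9% (32.0 to 40.0%) for neither. The intervals of both replicates and of neither overlap that of replicate 2 only, and the interval of replicate 1 only lies below it. The position is not independent of the rule. All autosomal peaks of the replicate 2 list had a centre share of 40.9% and those of the replicate 1 list 25.9%, and the part of these list-wide shares in the lean was not tested.

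The 5 autosomes had centre shares close to each other, from 40.7% on V and 43.4% on IV to 43.5% on III, 44.1% on I and 45.8% on II, each with an interval of more than 20 percentage points. On each of them the centre was denser than either arm. The arms of 1 chromosome differed more in their counts. On II the left arm held 9 peaks, 1.77 per Mb, and the right arm 23, 4.52 per Mb, while on I the left arm held 22 (4.38 per Mb) and the right arm 11 (2.19 per Mb). On III the left arm held 24 and the right arm 15. Peaks found in both replicates had the same order on II, with 6 in the left arm and 27 in the right, and the other order on I, with 12 and 16.

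Chromosome III was the densest, with 69 peaks or 5.01 per Mb, and V the sparsest, with 59 peaks or 2.82 per Mb. The values were 3.91 per Mb on I (59 peaks), 3.86 on II (59 peaks) and 3.03 on IV (53 peaks). These densities count each peak, also those that share a replicate 2 peak, and were not recounted by replicate 2 peak. Replicate 2 only peaks made up 22.5% of all whole-series peaks on III and 13.0% of those on IV. The median score was also highest on III, at 10.6, and between 8.08 and 9.15 on the other 4.

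In slices of 10% of chromosome length, the one from 30 to 40% held the most, with 50 of the 299 peaks or 16.7%. There I and II had 14 each, IV had 11, III had 9 and V had 2 of its 59. The 50 peaks lay on 38 replicate 2 peaks, so part of the excess came from several peaks on 1 replicate 2 peak. These 38 were still the most in any slice. In the slice from 40 to 50%, 35 peaks lay on 35 replicate 2 peaks, and from 60 to 70%, 34 lay on 34. Replicate 1 only peaks had their lowest share, 4.27%, in the slice from 30 to 40%. That slice held 107 of the 1384 autosomal replicate 1 peaks and 67 of the 501 of replicate 2. The replicate 1 list itself had its lowest count, 93, in the slice from 50 to 60%. The outermost slices held 7.02% on the left and 8.70% on the right. None of the 299 lay within 10 kb of a chromosome end, and the smallest distance was 66.3 kb.

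**Figure D2:**
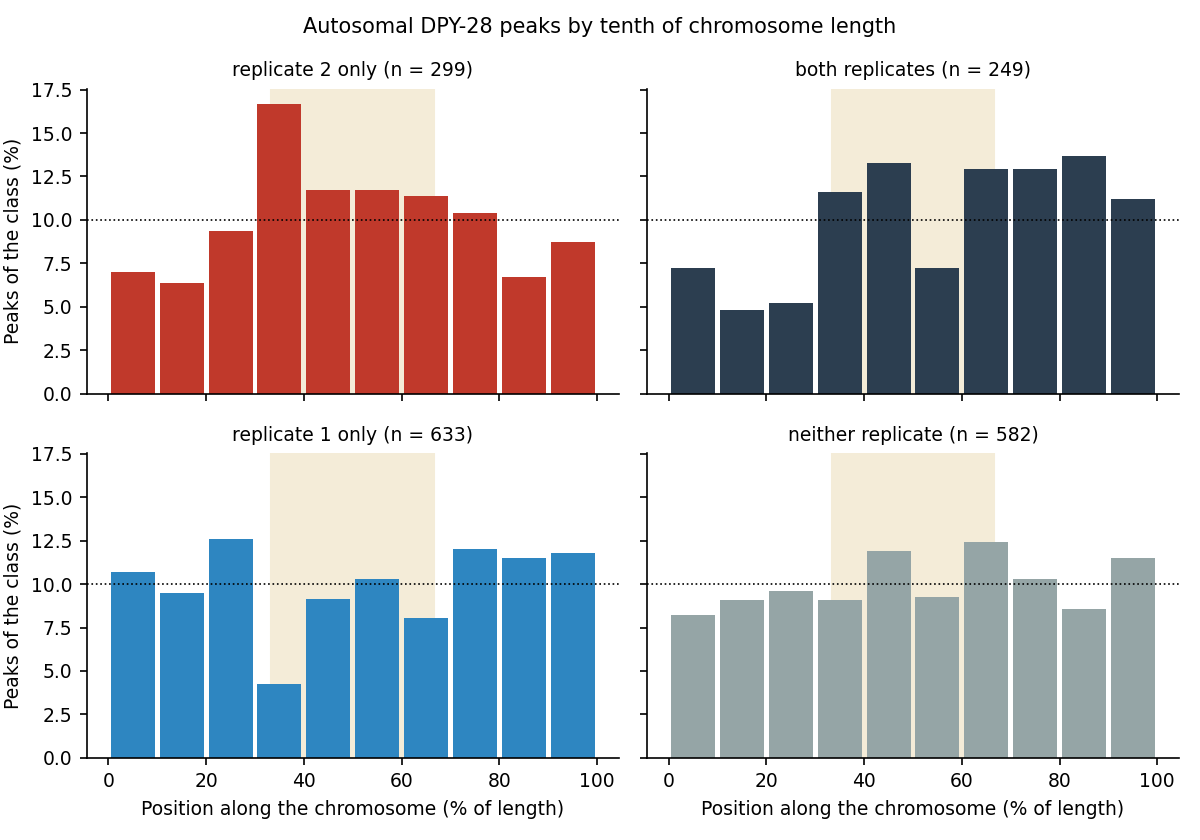
Share of the peaks of each class (y axis, %) by slices of 10% of chromosome length (x axis, % from the left end, the 5 autosomes added up). Classes are replicate 2 only (n = 299), both replicates (n = 249), replicate 1 only (n = 633) and neither (n = 582). The dotted line at 10% is an even spread and the shaded band the centre; replicate 2 only peaks reach 16.7% in the slice from 30 to 40%, where replicate 1 only peaks have 4.27%.

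Peaks in centres and arms were compared in strength and width. Centre peaks had a median whole-series score of 9.51 (8.40 to 10.7, n = 130) and arm peaks 8.69 (7.82 to 10.2, n = 169), with median widths of 292 bp (280 to 309) and 277 bp (261 to 306). The replicate 2 peaks under them had median scores of 112 (93.7 to 142) in centres and 108 (87.6 to 122) in arms. The intervals of centres and arms overlapped in each of these measures. The nearest replicate 1 peak was farther in centres, at a median of 36.6 kb (28.8 to 54.1), than in arms, at 21.2 kb (15.7 to 26.2). Replicate 1 peaks are sparser in centres, where 25.9% of those on autosomes lie, and the part of this in the distances was not tested.

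The 299 peaks lay on 261 replicate 2 peaks, since 21 of these held several. Of the 299, 247 (82.6%, 77.8 to 86.7%) lay wholly inside their replicate 2 peak and 298 had 50% or more of their length in it. Among the 261, 240 held 1 peak each, 11 held 2, 4 held 3, 5 held 4 and 1 held 5. The median score of these replicate 2 peaks was 96.5 (85.8 to 108), against 113 (105 to 122) for all 501 autosomal ones, with overlapping intervals. The 220 that overlapped replicate 1, of which 8 are among the 261, had a median of 172 (146 to 207). The 261 also include the highest autosomal score of the list, 3169.23. Of the 261, 136 scored under 100, where the lowest score of the autosomal list is 50.15.

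Taken from the replicate 2 list, 281 of its 501 autosomal peaks had no replicate 1 overlap. Of these, 253 carried 1 or more of the 299 peaks. Another 27 overlapped no whole-series peak, with a median score of 63.7 (57.3 to 80.6), and 1 overlapped a whole-series peak that itself reached a replicate 1 peak. Of the 27, 5 lay in centres, or 18.5%, against 43.5% of the 253. The 27 are few, and this difference was not tested. The other 8 of the 261 replicate 2 peaks did touch replicate 1 elsewhere along their length.

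Whole-series score and replicate 2 score ranked the peaks differently. Across the 299, Spearman's rho of the 2 scores was 0.28. It was 0.59 for the 151 peaks over replicate 2 peaks of up to 500 bp, 0.65 for the 83 over 500 to 1000 bp and 0.39 for the 45 over more than 2000 bp. No rho was taken for the 20 over replicate 2 peaks of 1001 to 2000 bp. Several peaks can share 1 replicate 2 score, and the whole-series list may rest on the same reads, so these are descriptions. The 150 replicate 2 peaks of up to 500 bp had a median score of 75.8, with a median whole-series score of 10.2 above them. The 16 over 2000 bp had a median replicate 2 score of 561, and the 45 whole-series peaks within them a median of 7.69. With only the highest whole-series peak taken for each replicate 2 peak, the median whole-series score was 10.1 over the 16 and 10.2 over the 150.

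These 16 wide replicate 2 regions were 2099 to 6966 bp long, and 33 of the 501 autosomal replicate 2 peaks were over 2000 bp. In 12 of the 16 several whole-series peaks lay side by side, and 12 touched no replicate 1 peak anywhere. They lay on every autosome, 5 on III, 4 on V, 3 on IV, 2 on I and 2 on II. The whole-series peaks in them covered 54.4% of their length, against 69.0% for the replicate 2 peaks of up to 500 bp.

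The highest scoring autosomal replicate 2 peak was one of them. III 1299642 to 1303114 scored 3169.23, rank 1 of the 501. The nearest replicate 1 peak was 5398 bp from the first of its 2 whole-series peaks. These, III 1299654 to 1301034 and III 1301278 to 1302950, scored 20.99 and 18.82, ranks 128 and 159 of the 1763. The next such region was III 2496723 to 2501807 with 2706.38, rank 7 of the 501, whose 3 whole-series peaks scored 7.82 to 17.47. The first of these, III 2497207 to 2499590, was the widest of the 299 at 2384 bp, and a replicate 1 peak lay 109 bp from it on the same replicate 2 peak. The second widest, IV 2828500 to 2830602, was 2103 bp and scored 15.13, over a replicate 2 peak that scored 862.86. The regions named here by their replicate 2 score were picked after the values were seen. In all, 5 of the 16 autosomal replicate 2 peaks that scored 1000 or more lay under replicate 2 only peaks, 4 of them on III and 1 on II. This is a smaller share than the 261 of all 501 autosomal replicate 2 peaks.

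**Figure D3:**
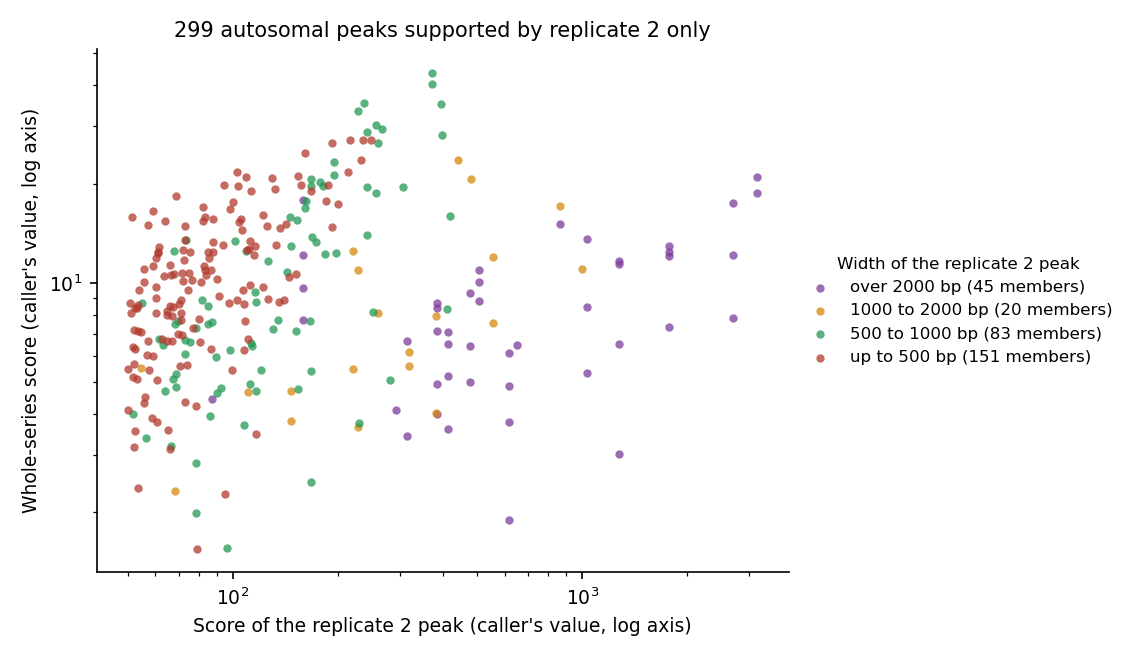
Whole-series score (y axis) against the score of the overlapping replicate 2 peak (x axis), both the caller's values on log axes, for the 299 autosomal peaks, coloured by the width of the replicate 2 peak. Peaks over replicate 2 peaks of up to 1000 bp rise together in both scores to 43.59, with replicate 2 scores of 50.15 to 419.0. The 45 over replicate 2 peaks wider than 2000 bp have replicate 2 scores of 87.23 to 3169.23, overlapping that range, and whole-series scores of at most 20.99.

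Part of the 299 stood in tight groups. Another replicate 2 only peak lay within 10 kb for 102 of them, or 34.1% (28.8 to 39.8%), while the median distance to the nearest one was 65.6 kb. The same count within its own class was 42.6% for peaks in both replicates, 58.3% for replicate 1 only and 22.5% for neither. This count also depends on peak number, which was 3.62 per Mb for replicate 2 only, 3.02 for both replicates, 7.67 for replicate 1 only and 7.05 for neither. Of the 102, 59 shared a single replicate 2 peak with another. With 1 peak kept for each replicate 2 peak, an alternative added after the data were seen, the share within 10 kb was 17.6% (13.2 to 22.8%).

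Joined at up to 10 kb, the 299 peaks formed 197 single peaks, 28 pairs and 12 groups of 3 or more. The largest, I 4540482 to 4547408, held 6 peaks in 6927 bp with scores of 4.01 to 17.85. They lay over 2 replicate 2 peaks that scored 381.87 and 158.84. No replicate 1 peak lay within its bounds, and the nearest was 4128 bp from its first peak. In IV 6357869 to 6360942, 5 peaks scored 4.00 to 8.66 on 1 replicate 2 peak of 3381 bp. Between them lay a whole-series peak that did overlap a replicate 1 peak, of score 53.04, close to the lowest of that list's autosomal scores, 50.01.

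The group II 5346386 to 5358473 was of another kind, with 4 separate replicate 2 peaks that scored 59.2 to 236.51 under 4 whole-series peaks that scored 10.73 to 27.3. On III, 7444360 to 7448069 held 4 peaks on 1 replicate 2 peak of score 1775.32, and 3334308 to 3336854 held 4 on 1 of score 1278.73. Neither had a replicate 1 peak within its bounds. For the group at III 7444360 the nearest was 122127 bp from its last peak. For that at III 3334308 it was 9906 bp from its last peak.

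**Figure D4:**
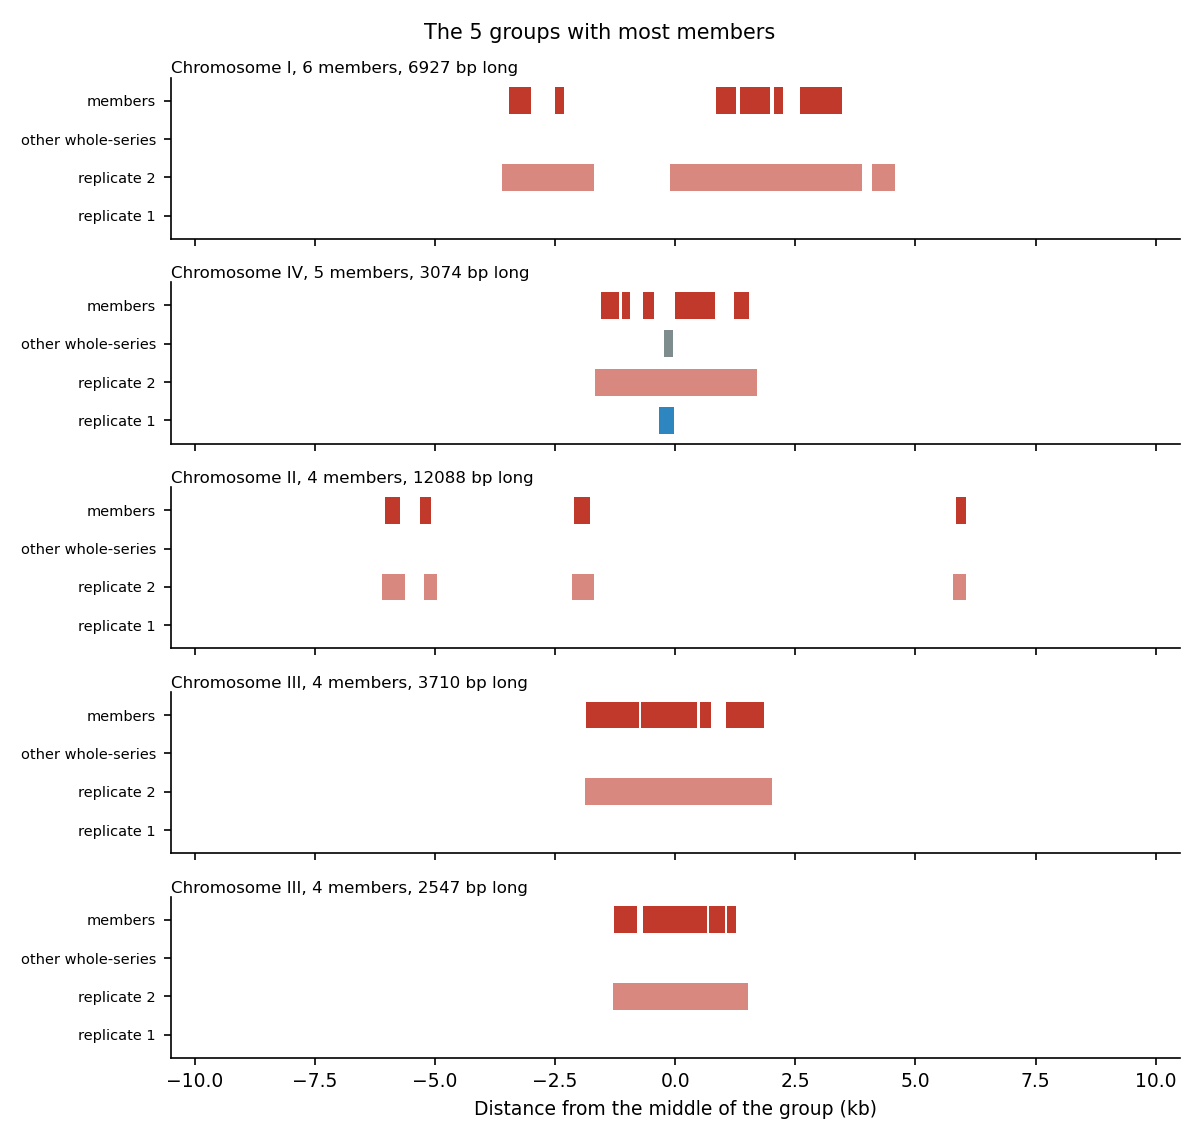
The 5 groups with most replicate 2 only peaks, by distance from the middle of the group (x axis, kb), with members (the replicate 2 only peaks), other whole-series peaks, replicate 2 peaks and replicate 1 peaks as bars to scale. Only the chromosome IV group has a replicate 1 peak within its bounds, and the chromosome II group has a separate replicate 2 peak under each of its 4 members. Peaks farther from a group are not all drawn. A replicate 1 peak 4128 bp from the first member of the chromosome I group is left out.

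Most of the peaks lay more than 5 kb from any replicate 1 call. The rule itself leaves out peaks that overlap replicate 1, and the distances were not set against those of other autosomal positions. The median distance to the nearest replicate 1 peak was 26.2 kb (20.8 to 30.1), with a middle 50% of 8.29 to 56.8 kb and a maximum of 251 kb. A replicate 1 peak lay within 500 bp of 18 peaks (6.02%, 3.61 to 9.35%), within 1 kb of 29 (9.70%, 6.59 to 13.6%) and within 5 kb of 60 (20.1%, 15.7 to 25.1%). The 17 replicate 1 peaks within 500 bp scored 50.79 to 464.78 with a median of 115, against 103 for all 1384 on autosomes. The median distance to a peak found in both replicates was 148 kb (121 to 172), and 45 of the 299 had one within 10 kb. Such peaks number 249 and each overlaps a replicate 1 peak, so a longer distance than to the 1384 follows largely from the classes.

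In 17 of the 299 (5.69%, 3.35 to 8.95%) the label holds for the whole-series peak and not for the replicate 2 peak, which overlapped replicate 1 at another point. These had a median whole-series score of 6.53 (4.92 to 7.82), against 9.44 (8.60 to 10.6) for the other 282. The 17 lay on 8 replicate 2 peaks, with 5, 4 and 3 of them on single ones. They are thus not independent, and their interval may be too narrow. The part of this sharing in the lower median was not tested. The 8 replicate 2 peaks of the 17 had a median width of 1846 bp (690 to 6966), against 464 bp (438 to 493) for the 253.

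**Figure D5:**
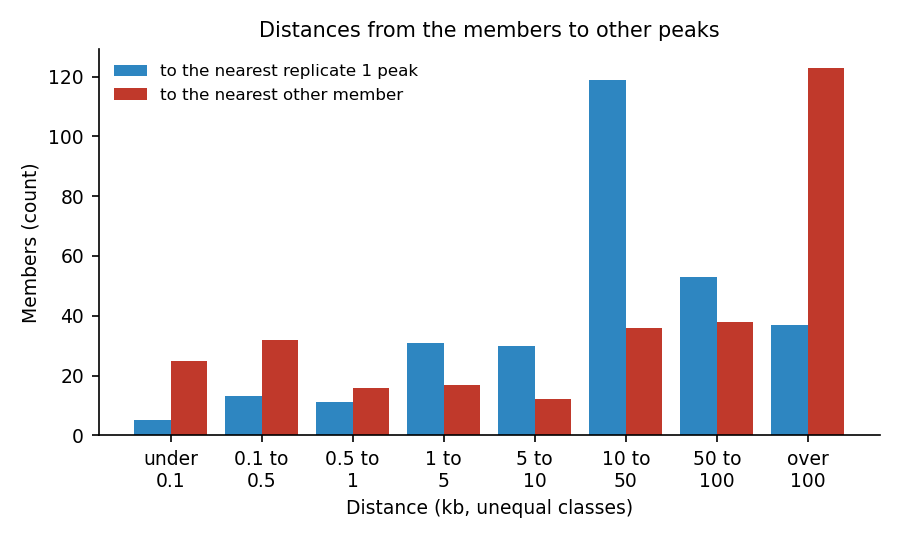
Number of the 299 peaks (y axis) by distance in kb (x axis, unequal classes) to the nearest replicate 1 peak and to the nearest other replicate 2 only peak. Distances to replicate 1 are most often 10 to 50 kb (119 peaks), while distances to another replicate 2 only peak are either under 1 kb (73 peaks) or over 100 kb (123 peaks) for most.

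The peaks just inside the rule were I 9989114 to 9989261 (score 4.92), 8 bp from a replicate 1 peak, IV 6359408 to 6360232 (score 8.39), 23 bp away, and III 8801407 to 8801552 (score 4.65), 24 bp away. Those with the smallest overlap with replicate 2 were II 12778409 to 12778587, with 87 bp and a score of 3.88, III 5305734 to 5305901, with 99 bp and 9.69, and III 6805379 to 6805544, with 129 bp and 8.66. Just outside were I 1712255 to 1712495 (score 11.71), V 19142639 to 19142792 (score 10.2) and II 6951433 to 6951655 (score 7.94), which replicate 1 peaks covered by 46, 56 and 69 bp. The narrowest peaks inside were 146 bp, at II 4701329 to 4701474 and III 8801407 to 8801552, and 147 bp, at II 13291333 to 13291479, where 146 bp is also the lowest width of any autosomal peak of the list.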

How the data were processed

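The 3 peak lists were used as deposited. The submitters' processing notes name BWA as the aligner and ce10 as the build; per the file headers, coordinates are WormBase WS220, MACS made the replicate lists and MACS v2 the whole-series list. Each peak carries the score that its caller gave, unchanged from what the authors deposited. Versions and thresholds of the caller, and the way samples and inputs were combined for the whole series, are not stated in the labels or headers. No input peak list was used here. Since the gene table at hand is of another build, no gene was assigned.

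Peaks were placed by their midpoint, and chromosome size was the last peak end in any list. Distances count the bases between peaks. The members and measures were chosen with earlier results of these data known. Named regions were the 10 highest scores, the highest per autosome, the 3 widest and narrowest, the 5 largest groups, and those nearest the limits of the rule. No test was made between samples. Alternatives changed the overlap, score limits, merging, wide peaks, centre and distances. Functions were checked on simulated lists. Python 3.11.15, pandas 2.3.3, scipy 1.17.1 and matplotlib 3.10.9 were used.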

Additional observations from a re-analysis of the deposited data

How the results depend on the processing

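The number of replicate 2 only peaks was 299, and it stayed within 1.5 times this except that it was 141 with only the upper 50% of replicate 2 scores and 548 without ChIP replicate 1. The centre share of 43.5% moved beyond its interval only with another centre: 60.5% for the middle 50% and 29.1% for the middle 25% of chromosomes, where all autosomal peaks had 52.0% and 24.3%. The share with a neighbour within 10 kb became 18.0% with peaks closer than 500 bp merged, 17.6% with 1 peak per replicate 2 peak, 23.2% without replicate 2 peaks over 2 kb, 53.2% with the upper 50% of replicate 2 scores and 43.6% without ChIP replicate 1. The median score became 11.3 with the upper 50% of whole-series scores, 11.6 with the upper 50% of replicate 2 scores and 11.9 without ChIP replicate 1; the median width became 352 bp and 340 bp under the last 2 of these. The median replicate 2 score of 109, counted once for each of the 299 peaks, became 96.5 with merging and also with 1 peak per replicate 2 peak, 93.2 without replicate 2 peaks over 2 kb, 233 with the upper 50% of replicate 2 scores and 134 without ChIP replicate 1.

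The share on a replicate 2 peak that also met replicate 1 was 5.69%. It became 13.5% when 50% of a peak had to be covered, 2.49% when a replicate 1 peak within 500 bp counted, 9.93% and 2.56% with the upper 50% of replicate 2 and of replicate 1 scores, 0.408% with merging, 3.07% with 1 peak per replicate 2 peak and 1.57% without those over 2 kb. The share with a replicate 1 peak within 1 kb, 9.70%, became 17.5% (50% covered), 3.91% (replicate 1 within 500 bp counted), 5.64% (upper 50% of replicate 1 scores) and 3.27% (merging), and 20.1% within 5 kb. Of 84 alternative values, 53 stayed within these bounds. Score limits, merging and left-out peaks change the members by construction; other causes were not tested. The alternatives with 1 peak per replicate 2 peak and without those over 2 kb were chosen after seeing the data. Without ChIP replicate 2 the rule has no member, so no value was given. No paired analysis was possible because no input list was used here and the result comes from no test between groups. Read depth is unknown, so how far a missing replicate 1 call reflects depth was not tested.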
